A study of Mus musculus with 18 samples.

Results

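The genes described here make or govern cholesterol in the kidney cortex of mice challenged with antibodies against the glomerular basement membrane (anti-GBM), which bind in the glomerulus and start a nephritis. The members are Hmgcs1, Fdft1, Fdps, Idi1, Sqle, Lss, Cyp51, and Insig1, and they were chosen by gene symbol. In the table of B6 and NZW mice, 13 of 46632 probes carried the symbol of a member, and they covered 6 of the 8 genes. In the table of BALB/c, DBA1, and 129/svj mice, 6 of 46147 rows had the search key of such a probe. Hmgcs1 and Fdft1 had no probe under their symbols and are skipped, apart from a single probe named below.

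RNA was measured on Illumina mouse BeadChips in 15 mice, 3 each of B6, NZW, BALB/c, DBA1, and 129/svj, aged 2 months. The submitters call B6 and BALB/c resistant to this nephritis and DBA1, 129/svj, and NZW sensitive to it. All 15 mice were challenged, and no unchallenged mouse is among these samples, so differences between strains before the challenge and after it cannot be told apart. In the table of BALB/c, a further array of each strain is described by the submitters as a replicate of the first one and was taken as a repeat array of that mouse, so there are 18 arrays. Strains are compared within a table only, since the table and the strain cannot be told apart across them. Arrays of B6 and NZW had median signals from 81.1 to 89.8, and the other arrays from 118.5 to 152. Between 30.5% and 36.4% of the probes were detected per array, which means a detection p no higher than 0.05. In a tissue sample, fewer cells of a type and less RNA per cell cannot be told apart. The tissue carried the RNA of cortical tubules: all 10 proximal tubule markers with a probe were detected in B6 and NZW, and all 7 in the other table.

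Cholesterol is built from acetyl groups. Hmgcs1 makes HMG-CoA, which is then turned into mevalonate, Idi1 interconverts the isoprene units made from it, and Fdps joins these into farnesyl pyrophosphate. Fdft1 condenses this to squalene, Sqle oxidises squalene, Lss closes the sterol ring as lanosterol, and Cyp51 removes a methyl group from lanosterol on the way to cholesterol. When membranes of the endoplasmic reticulum are poor in sterol, Scap carries the transcription factor SREBP-2 (Srebf2) to the Golgi, where it is cut and freed to raise these genes. Insig proteins hold Scap back when sterol is plentiful. Proximal tubule cells also take up lipoproteins and recover sterol from lysosomes.

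Promoters are shown for Cyp51 and Lss, which were both higher in NZW than in B6, and for Hmgcs1, which holds the sterol regulatory letters that were searched. Each is the run of 250 bases before the transcription start in RefSeq's mouse annotation on build GRCm38.p6, written 5' to 3' on the strand of the gene. Cyp51 lies on the minus strand at chr5:4104698-4104947, Lss on the plus strand at chr10:76531355-76531604, and Hmgcs1 on the plus strand at chr13:119690101-119690350. Capitals mark 3 motifs read on both strands, with no overlap between them in these runs: TCACNCCAC, a form of the sterol regulatory element, CCAAT, the letters that nuclear factor Y binds, and GGGCGG, the letters that Sp1 binds.
Cyp51: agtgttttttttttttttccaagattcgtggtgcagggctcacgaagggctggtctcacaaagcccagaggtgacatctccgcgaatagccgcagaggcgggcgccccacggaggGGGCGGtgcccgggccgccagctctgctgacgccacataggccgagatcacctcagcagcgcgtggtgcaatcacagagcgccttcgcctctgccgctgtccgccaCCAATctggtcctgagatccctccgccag
Lss: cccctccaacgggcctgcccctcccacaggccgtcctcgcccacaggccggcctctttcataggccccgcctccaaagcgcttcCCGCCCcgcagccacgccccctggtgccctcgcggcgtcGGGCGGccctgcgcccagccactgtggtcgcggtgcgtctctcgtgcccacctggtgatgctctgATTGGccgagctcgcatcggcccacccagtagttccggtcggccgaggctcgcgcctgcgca
Hmgcs1: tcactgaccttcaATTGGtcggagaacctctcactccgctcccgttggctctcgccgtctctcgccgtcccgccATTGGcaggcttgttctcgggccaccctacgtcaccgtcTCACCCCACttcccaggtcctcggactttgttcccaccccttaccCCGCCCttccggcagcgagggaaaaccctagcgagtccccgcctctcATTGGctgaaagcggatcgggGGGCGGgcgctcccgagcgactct
TCACNCCAC was found in Hmgcs1 alone of the 5 members with a promoter entry (Cyp51, Hmgcs1, Idi1, Insig1, and Lss), and 1.05% of the 32851 mouse promoter runs of this length hold it. CCAAT and GGGCGG were found in all 5, against 33.8% and 32.7% of all runs. A match to these letters is a description and not a measured binding site.

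Cyp51 was the member that differed most clearly between B6 and NZW. Both of its probes were higher in NZW, by 2.31-fold and 2.10-fold, and Lss was higher by 1.45-fold. No probe sequence was given, so whether a base that differs between strains lies under a probe was not tested for these or any other values. Fdps, Hmgcs1, and the bright Sqle probe had nearly the same level in both strains. Of the 13 member probes, 6 were detected in at least 3 mice and tested, and 3 of them passed an adjusted p of 0.05 in limma with Benjamini-Hochberg adjustment, all higher in NZW. Of all 16756 probes tested, 18.8% passed, with 9.61% higher in NZW and 9.23% lower. With 1 probe per gene, 2 of the 4 member genes tested were higher and none was lower. The median difference of these 4 genes was 0.27 on the log2 scale, and that of all probes was 0.04.

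On the log2 scale of normalized signal, Cyp51 probe ILMN_2688075 was at 8.91, 9.22, and 9.38 in the B6 mice and at 10.49, 10.11, and 10.52 in the NZW mice. The lowest NZW mouse lay above the highest B6 mouse, and 37.3% of all tested probes separated the strains in this way. The difference was 1.21 (SE 0.16, adjusted p = 0.0011 in limma). Probe ILMN_2428754, the brighter Cyp51 probe, was at 10.73, 10.92, and 11.35 in B6 and at 12.23, 11.93, and 12.05 in NZW. It separated the strains too, with a difference of 1.07 (SE 0.17, adjusted p = 0.0026 in limma). Leaving out any mouse kept the differences of these probes between 0.93 and 1.32.

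Lss, the ring-closing enzyme just before Cyp51 in the pathway, was dimmer. Its probe ILMN_2614161 was at 7.18, 7.08, and 7.17 in B6 and at 7.65, 7.95, and 7.44 in NZW. All 3 NZW mice were above all 3 B6 mice, while the NZW mice spread more widely. The difference was 0.54 (SE 0.14, adjusted p = 0.030 in limma). This call is at the edge of the threshold. Without NZW mouse 1 or 2, or without any B6 mouse, the adjusted p was 0.060 to 0.11, and with every probe of the table tested it was 0.054.

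Fdps, which makes farnesyl pyrophosphate, was level. Probe ILMN_1225730 was at 10.22, 10.14, and 10.24 in B6 and at 10.16, 10.18, and 10.24 in NZW, so the strains overlapped. The difference was -0.01 with a 95% interval of -0.23 to 0.22 (adjusted p = 0.98 in limma). Sqle, the first oxygen-using step and a control point of sterol synthesis, has probes that differ in brightness. The bright probe ILMN_2737163 was at 9.95, 10.03, and 9.90 in B6 and at 10.06, 9.71, and 10.12 in NZW. Its strains overlapped, and the 95% interval of the difference ran from -0.30 to 0.30 (adjusted p = 1 in limma). The dim probe ILMN_2600348 was at 5.65, 5.75, and 5.51 in B6 and at 6.21, 5.46, and 6.35 in NZW. NZW mice 1 and 3 were above every B6 mouse and NZW mouse 2 was below them all, with a difference of 0.37 (SE 0.22, adjusted p = 0.29 in limma). Without NZW mouse 2 this difference was 0.65 and its adjusted p was 0.011.

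**Figure D1:**
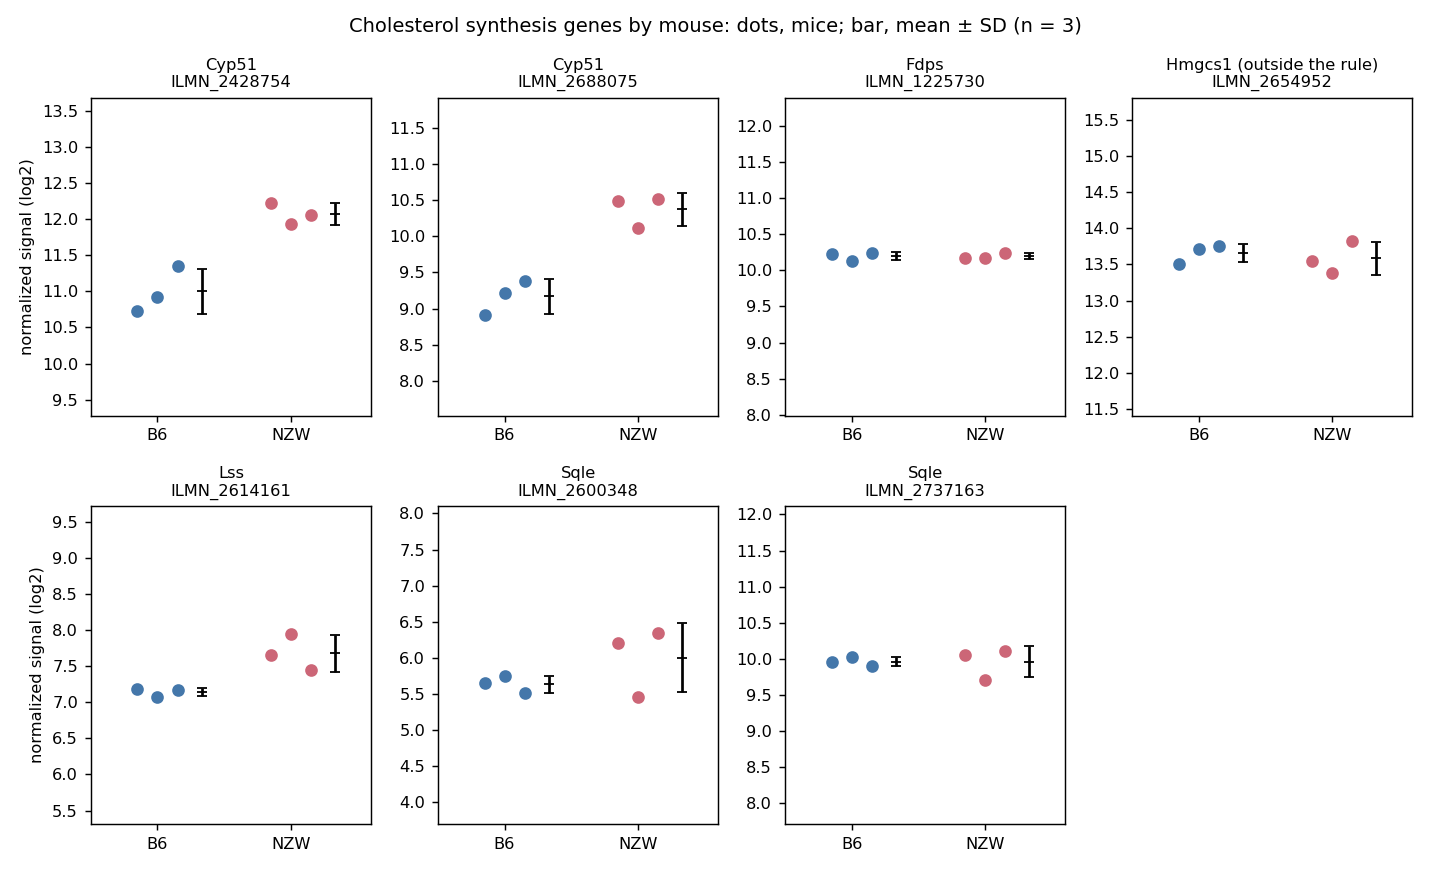
Normalized log2 signal (vertical axis) of each tested probe in the 3 B6 and 3 NZW mice (dots in the order of mouse number), with the mean and SD of a strain as a bar. Every vertical axis spans the same range of log2 units, and the panels of Cyp51 and Lss have all NZW mice above all B6 mice.

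The other 7 member probes in B6 and NZW were not above background in any mouse, with detection p of 0.0593 or more and deposited signals of 58.5 to 102. These were all 3 probes of Insig1, the brake on SREBP-2, the only probe of Idi1, and 1 probe each of Fdps, Lss, and Sqle. The other Fdps, Lss, and Sqle probes were detected in the same mice. For Insig1 and Idi1 no level was measured in these strains. Hmgcs1, the entry enzyme, is reached only outside the rule. Probe ILMN_2654952 is listed under another symbol but has an accession of Hmgcs1 as its search key, and it was added after the data had been seen. It was bright, at 13.51, 13.72, and 13.75 in B6 and at 13.55, 13.38, and 13.83 in NZW. The strains overlapped, and the difference was -0.07 with a 95% interval of -0.40 to 0.25 (adjusted p = 0.77 in limma).

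In the table of BALB/c, DBA1, and 129/svj the member that differed was Sqle. It was at least 1.85-fold higher in DBA1 and at least 2.08-fold higher in 129/svj than in BALB/c, where 1 of 3 mice had it above background. These bounds, added after the data had been seen, are on signals without background correction, where they came out lower than on corrected signals (3.57 and 4.28), and they set the mean of the brighter strain against the higher of the row's own signal and the dimmest signal of a detected row on each BALB/c array. Cyp51 was detected in every mouse and passed the threshold in none of the 3 comparisons. Of the 6 member rows, 2 were detected in at least 3 mice and tested. Of these, 1 was higher in DBA1 than in BALB/c, where 5.75% of all 15818 tested rows passed, 2.89% higher and 2.86% lower. Between 129/svj and BALB/c, 1 member row was higher, and 4.82% of all rows passed, 2.36% higher and 2.47% lower. Between DBA1 and 129/svj no member row passed in limma, and 4.48% of all rows did, 2.17% higher and 2.31% lower in DBA1. At an unadjusted p below 0.05 that count was also 0, in limma and in the methods' t-test.

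Sqle row scl0002494.1_23-S was at 5.69, 5.20, and 5.09 in the BALB/c mice, at 7.66, 7.62, and 7.38 in the DBA1 mice, and at 8.13, 7.48, and 7.83 in the 129/svj mice. BALB/c lay below both sensitive strains with a gap wider than the spread of any strain, while DBA1 and 129/svj overlapped. Of all rows tested, 25.5% kept DBA1 and BALB/c apart and 21.9% kept 129/svj and BALB/c apart. With the BALB/c signals taken as they stand, the fitted log2 difference from BALB/c was 2.23 for DBA1 (SE 0.21, adjusted p = 0.00014 in limma) and 2.49 for 129/svj (SE 0.21, adjusted p = 5e-05 in limma). Without background correction these differences were 1.06 and 1.23 (adjusted p = 0.00044 and 0.00014 in limma). DBA1 and 129/svj were kept apart by 17% of all rows. The Sqle difference of DBA1 from 129/svj was -0.26 with a 95% interval of -0.73 to 0.21 (adjusted p = 0.71 in limma). The BALB/c level is close to the floor of the array: 1 of the 4 BALB/c arrays detected the row, with deposited signals of 132 to 164 over them, and all arrays of DBA1 and 129/svj detected it. The row was tested because of those strains. Leaving out any mouse kept the fitted Sqle difference between 2.10 and 2.40 for DBA1 and between 2.35 and 2.66 for 129/svj. The other Sqle row was not detected in any mouse. The search key of the row that differed belongs to 2 probes in the table of B6 and NZW, and which of them it is cannot be read from the files, so the Sqle values of the tables are not set against each other.

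Cyp51 row scl013121.10_1-S was at 10.06, 10.54, and 10.24 in BALB/c, at 10.86, 10.78, and 10.58 in DBA1, and at 10.34, 10.77, and 9.31 in 129/svj. The DBA1 mice lay just above the BALB/c mice, and 129/svj spanned both, with mouse 3 the lowest of the 9 mice. That mouse also stood apart in some markers of other cells. Its summed macrophage signal was 1105 against 310 to 725 in the other 8 mice. This sum covers 3 genes, with Cd68 the most abundant. In the others 129/svj did not exceed DBA1: the highest mice were at 7.74 and 7.93 for Csf1r and at 8.17 and 8.48 for C1qa. The mouse's signal of the neutrophil gene S100a8 was 1027 against 28.9 to 345. Its summed proximal tubule signal was the lowest, at 20335 against 25279 to 35908, and it was high in the adipocyte gene Adipoq, described below. The part of these in the Cyp51 value was not tested. DBA1 was 0.46 above BALB/c with a 95% interval of -0.24 to 1.17 (adjusted p = 0.50 in limma). The 129/svj mice were -0.14 from BALB/c with a 95% interval of -0.84 to 0.57 (adjusted p = 0.90 in limma), and without 129/svj mouse 3 the difference was 0.28 (adjusted p = 0.63). The order of the means was DBA1, BALB/c, and 129/svj, and no neighbours in it differed past the threshold. Another row, scl0013121.2_8-S, carries the Cyp51 name in a supplementary table of the study, and it was added after the data had been seen. It was at 8.74, 9.14, and 8.80 in BALB/c, at 9.74, 9.59, and 9.33 in DBA1, and at 9.12, 9.34, and 8.06 in 129/svj. The mice stood much as in the other row, with 129/svj mouse 3 again the lowest. DBA1 was 0.66 above BALB/c (SE 0.30, adjusted p = 0.28 in limma), and without 129/svj mouse 3 this adjusted p was 0.047. By this row DBA1 was 0.71 above 129/svj, with overlapping mice (unadjusted p = 0.038 and adjusted p = 0.31 in limma).

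The rows of Fdps, Idi1, and Lss were not detected in any of the 9 mice, and Insig1 had no row. The search keys of the Fdps and Lss rows each belong to 2 probes in B6 and NZW, of which 1 was detected there and 1 was not. Which of these a row is cannot be read from the files, so no level of Fdps or Lss was measured in these 9 mice. The repeat arrays give a scale for the measurement error of the detected rows. For Cyp51 row scl013121.10_1-S the arrays of a mouse differed by 0.02 to 0.08 on the log2 scale, and for the Sqle row that differed they were 0.07 to 0.32 apart. The median over all tested rows was 0.14 to 0.17.

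**Figure D2:**
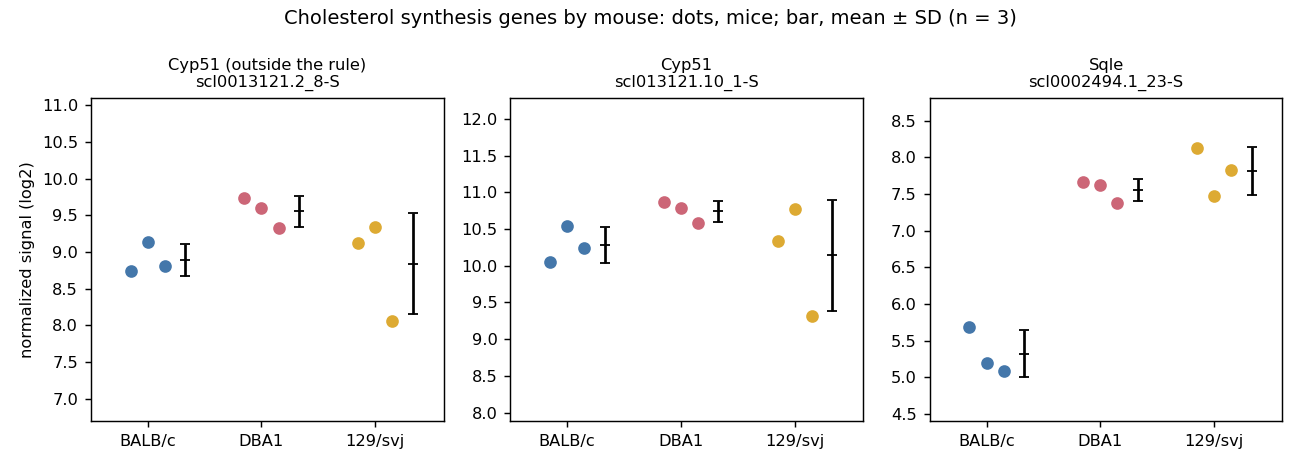
Normalized log2 signal (vertical axis) of the Cyp51 and Sqle rows in the 3 mice each of BALB/c, DBA1, and 129/svj (dots in the order of mouse number), with the mean and SD of a strain as a bar. Sqle is near 5 in BALB/c and above 7 in the other strains, and 129/svj mouse 3 is lowest in both Cyp51 rows.

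Of the other enzymes of cholesterol synthesis, 11 were tested in B6 and NZW, 2 were higher in NZW, none was lower, and the median difference was 0.16. This is near the background of all probes, of which 18.8% passed. The B6 and NZW counts of the lists that follow stand against the same 9.61% higher and 9.23% lower. Hsd17b7, which reduces a 3-keto sterol after Cyp51 has acted, was at 9.83, 9.97, and 9.67 in B6 and at 10.36, 10.45, and 10.36 in NZW by its brighter probe. Its strains did not overlap, with a difference of 0.57 (SE 0.11, adjusted p = 0.0094 in limma), while the dimmer probe ILMN_1232970 was above background in 1 of 3 B6 mice. It was at least 1.71-fold higher in NZW on signals without background correction, and its fitted log2 difference was 1.41 with the correction (adjusted p = 0.0025 in limma) and 0.79 without it. Acat2, which joins acetyl-CoA units at the entry of the pathway, was 0.35 higher in NZW (SE 0.10, adjusted p = 0.048 in limma), and without any mouse in turn its adjusted p was 0.070 to 0.18.

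Probes of the same gene disagreed in whether they passed for Nsdhl, Srebf2, Mbtps1, Erlin1, and Fads2, with the same sign in each of these genes. Both probes of Cyp51 and of Soat1 passed with the same sign, as did those of Hsd17b7, of which the dimmer was tested only because of its NZW level.

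**Figure D3:**
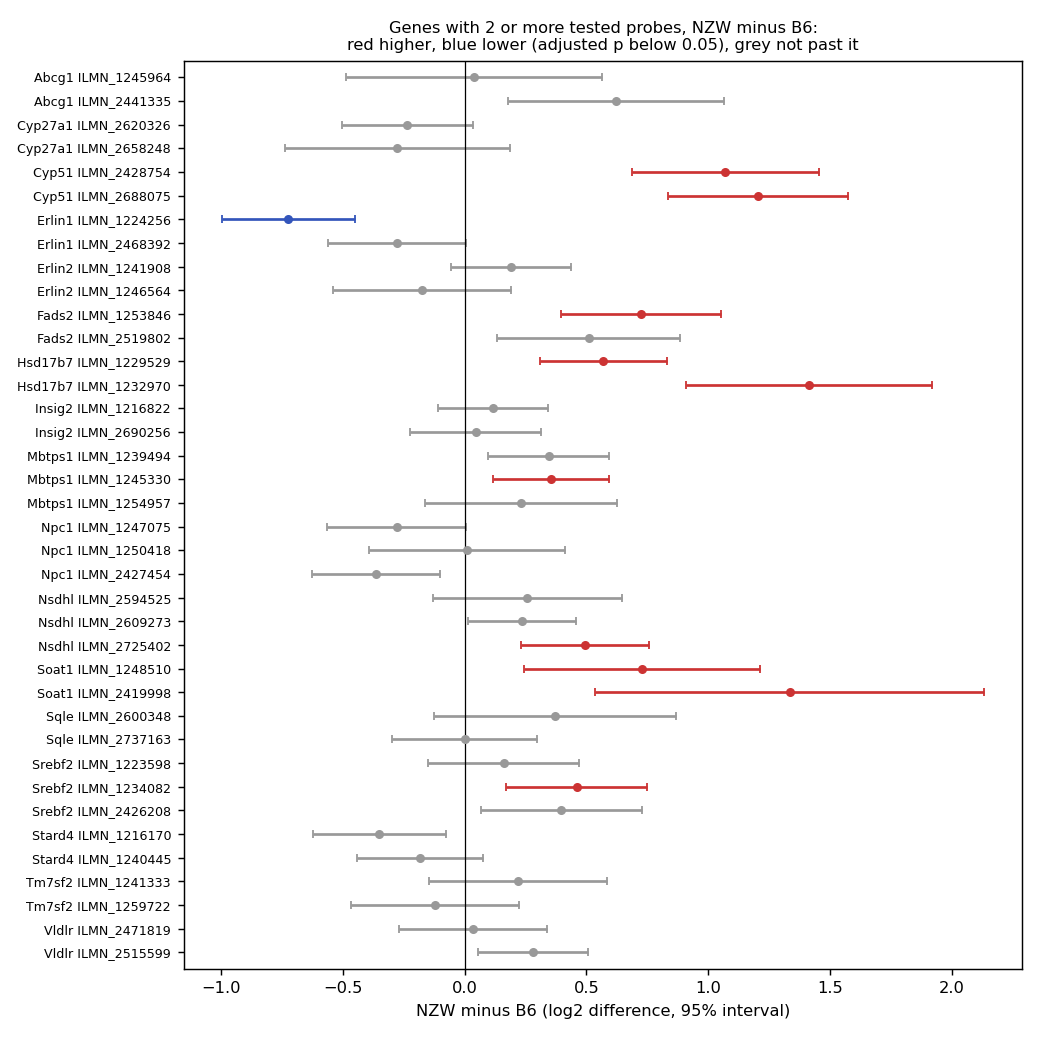
Log2 difference of NZW minus B6 with its 95% interval (horizontal axis) for each probe of the pathway genes that had 2 or more tested probes. Probes of 1 gene mostly have the same sign, as in Cyp51 at 1.07 and 1.21, while those of Hsd17b7 are at 0.57 and 1.41, the latter with 1 of 3 B6 mice above background.

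Of the enzymes of cholesterol synthesis outside the members, 3 genes were tested in BALB/c, DBA1, and 129/svj. None passed between DBA1 and BALB/c, and Hsd17b7 alone passed between 129/svj and BALB/c. The counts of all lists in these strains stand against the shares of all rows. These were 2.89% higher and 2.86% lower in DBA1, and 2.36% and 2.47% in 129/svj, each against BALB/c. For DBA1 against 129/svj they were 2.17% and 2.31%. Hsd17b7 was at 8.48, 8.58, and 8.42 in BALB/c, at 9.05, 9.01, and 9.30 in DBA1, and at 9.36, 9.20, and 9.80 in 129/svj. BALB/c lay below both other strains. The 129/svj mice were 0.96 above BALB/c (SE 0.17, adjusted p = 0.010 in limma), and DBA1 was 0.63 above it (SE 0.17, adjusted p = 0.069 in limma).

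Of 10 uptake and trafficking genes tested in B6 and NZW, 1 was higher in NZW, with a list median of 0.04. This was Lip1, an older symbol of the lysosomal acid lipase that frees cholesterol from lipoprotein esters. It was at 11.04, 11.04, and 11.25 in B6 and at 12.13, 12.09, and 11.91 in NZW, with no overlap and a difference of 0.93 (SE 0.12, adjusted p = 0.0007 in limma). In BALB/c, DBA1, and 129/svj, 6 genes were tested, and by the brightest row of each gene Osbp, an oxysterol-binding protein, was the only gene to pass. It was at 7.60, 7.50, and 7.45 in BALB/c, at 5.85, 5.95, and 6.40 in DBA1, and at 8.25, 8.38, and 8.37 in 129/svj. The strains stood apart in this order from DBA1 up to 129/svj. DBA1 fell by 1.45 against BALB/c (adjusted p = 0.00041 in limma), and 129/svj was 0.82 higher (adjusted p = 0.015 in limma). Without BALB/c mouse 2 or 3 or 129/svj mouse 1 or 2 the adjusted p of the latter was 0.050 to 0.076. The difference of DBA1 from 129/svj was -2.27 (adjusted p = 1.6e-05 in limma). Without background correction Osbp differed by -0.73 between DBA1 and BALB/c and by -1.29 between DBA1 and 129/svj (adjusted p = 0.00053 and 9e-06 in limma). The dimmer row of Npc1, which exports cholesterol from lysosomes, fell by 0.72 in 129/svj against BALB/c (adjusted p = 0.024 in limma, and 0.074 to 0.10 without any BALB/c mouse or 129/svj mouse 1 or 2). Its brighter row fell short of the threshold (-0.55, adjusted p = 0.089).

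The genes that regulate SREBP-2 had 8 tested genes in B6 and NZW, of which 1 was higher and 1 lower in NZW, with a list median of 0.20. Ubxd8, which takes part in the removal of Insig1 from the endoplasmic reticulum, was 0.41 higher (SE 0.11, adjusted p = 0.027 in limma), and without any mouse other than NZW mouse 3 its adjusted p was 0.054 to 0.090. Erlin1, a membrane protein that binds cholesterol and restrains SREBP, fell by 0.72 (SE 0.12, adjusted p = 0.0035 in limma). Srebf2 itself was 0.40 higher by its brightest probe (adjusted p = 0.095 in limma) and 0.46 higher by probe ILMN_1234082 (adjusted p = 0.037 in limma, and 0.053 to 0.13 without any mouse other than NZW mouse 3). Insig2, the partner of Insig1 that could be measured, was at 9.51 ± 0.16 in B6 and 9.55 ± 0.07 in NZW (SD, n = 3 each). In the other table Scap and Srebf2 were tested and neither passed in any comparison.

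Among genes of sterol efflux, oxidation, and storage, 10 were tested in B6 and NZW, of which 1 was higher and 3 lower in NZW, with a list median of -0.18. Soat1, which esterifies cholesterol for storage, was at 6.79, 8.22, and 6.81 in B6 and at 8.51, 8.86, and 8.46 in NZW. B6 mouse 2 stood near the NZW mice and was also the highest in Adipoq, at 9.21 against 6.50 and 6.13 in the other B6 mice. This mouse was also the highest of the B6 mice in summed macrophage signal (5526 against 3276 and 2899) and neutrophil signal (7111 against 1423 and 5575). The part of RNA of these cells or of adipocytes in its Soat1 value was not tested. The Soat1 difference was 1.33 (SE 0.35, adjusted p = 0.030 in limma). Leaving out any mouse other than B6 mouse 2 raised its adjusted p to 0.071 to 0.10. The oxysterol enzymes Ch25h and Cyp7b1 fell by 0.42 and 0.40, and the sterol-sensing receptor Nr1h2 fell by 0.47, with adjusted p of 0.030 to 0.039 in limma for these 3 genes. Ch25h was dim, and 2 of 3 NZW mice had it above background. None of the 3 calls held without each mouse in turn: the adjusted p reached 0.14 for Ch25h without B6 mouse 1, and 0.16 for Cyp7b1 and 0.11 for Nr1h2 without B6 mouse 2. BALB/c, DBA1, and 129/svj had 5 tested genes of this list. Soat1 was higher in 129/svj than in BALB/c by 1.23 (SE 0.26, adjusted p = 0.022 in limma), and without BALB/c mouse 1 or 3 or 129/svj mouse 3 its adjusted p was 0.050 to 0.097. Cyp7b1 was at least 2.36-fold higher in DBA1 than in BALB/c, where no array detected it, by the same bound as for Sqle (4.86 on corrected signals). The row was tested only because of DBA1 and 129/svj. It was at 6.65, 8.85, and 8.40 in the DBA1 mice, and without DBA1 mouse 1 the fitted log2 difference moved from 2.62 to 3.27. Its adjusted p was 0.013 in limma, and 0.051 to 0.055 without any BALB/c mouse.

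Genes of fatty acid synthesis that SREBP proteins also drive had 13 tested genes in B6 and NZW, of which 4 were higher and 1 lower in NZW, with a list median of 0.12. Acss2, which makes acetyl-CoA from acetate, was at 11.26, 11.40, and 11.31 in B6 and at 12.15, 12.10, and 12.32 in NZW. The strains were far apart, with a difference of 0.87 (SE 0.11, adjusted p = 0.00074 in limma). The elongase Elovl6 and the desaturase Fads2 were each 0.72 higher (adjusted p = 0.0038 and 0.0088 in limma). Elovl6 stayed past the threshold in 14 of 15 alternatives and Fads2 in 13 of 14. Tmem97, which binds the sterol transporter Npc1 and is listed here as an SREBP target, was named after its values were seen and was 0.58 higher (adjusted p = 0.0037 in limma). The desaturase Scd2 fell by 0.45 (adjusted p = 0.021 in limma, and 0.052 to 0.096 without NZW mouse 3 or B6 mouse 2 or 3). None of the 5 genes tested in the other table passed in any of the 3 comparisons.

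**Figure D4:**
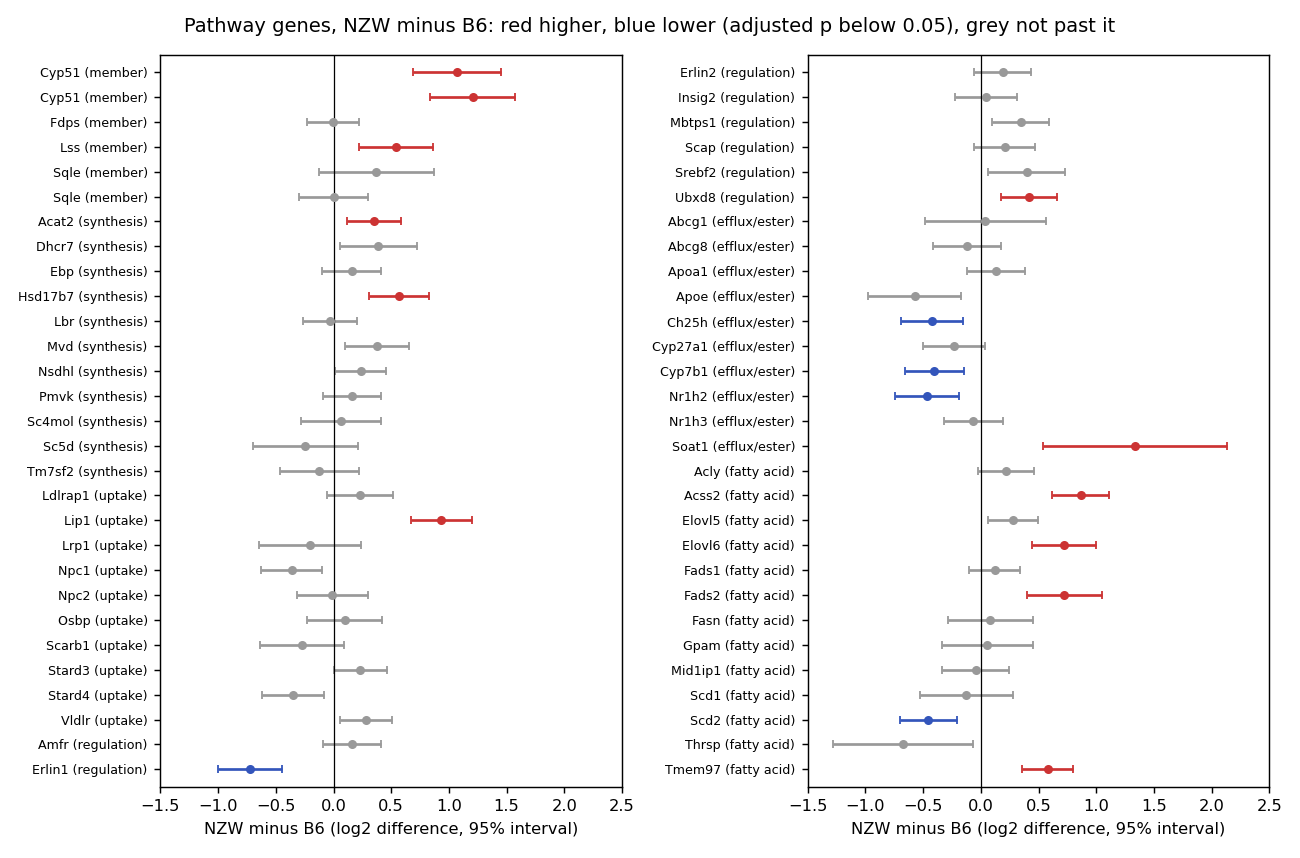
Log2 difference of NZW minus B6 with its 95% interval (horizontal axis) for every tested member probe and the brightest tested probe of each other pathway gene analysed. Red points are higher and blue points lower at an adjusted p below 0.05, with Cyp51, Lip1, Acss2, and Soat1 farthest to the right and Erlin1 the lowest that passed.

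**Figure D5:**
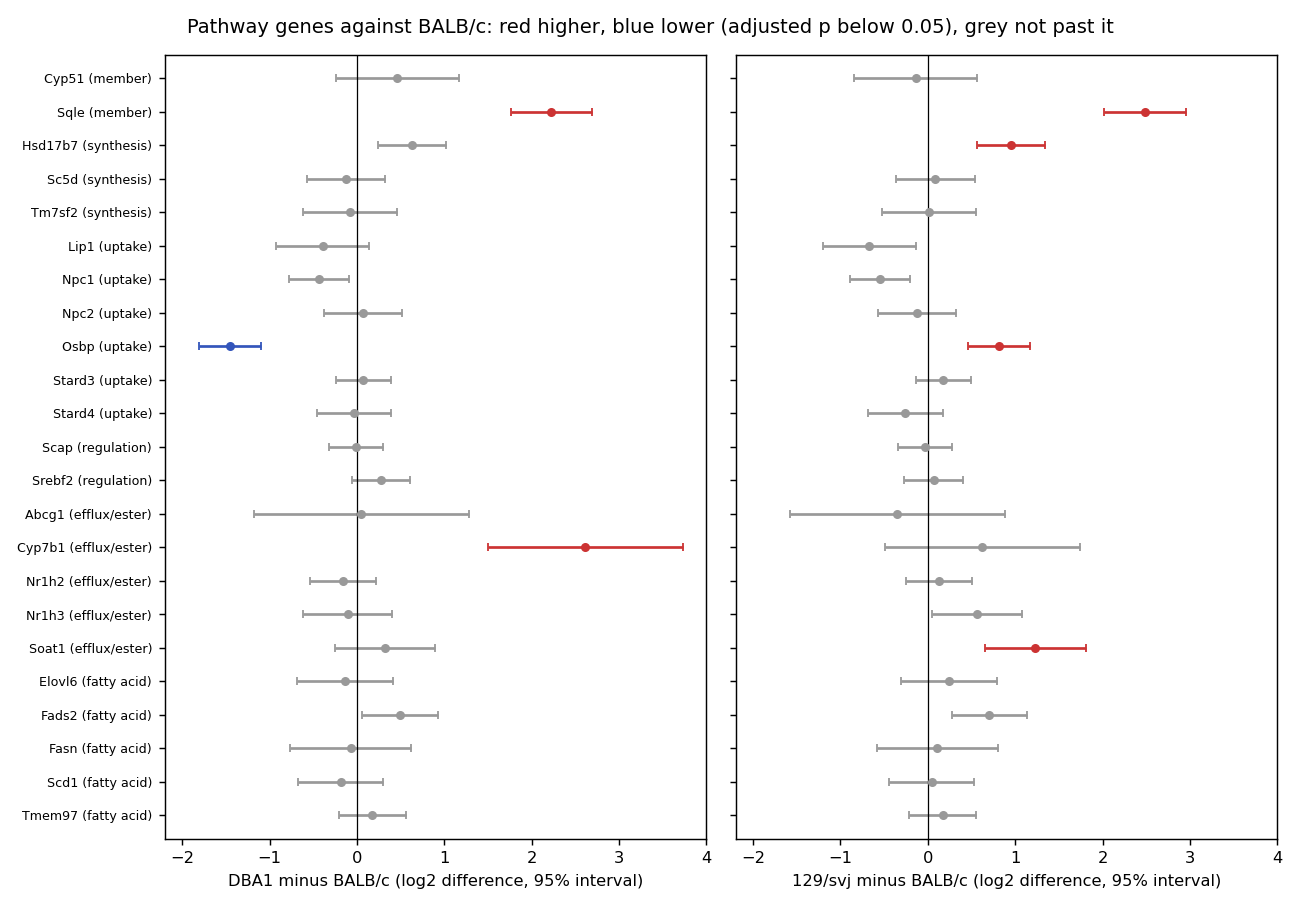
Log2 difference from BALB/c with its 95% interval (horizontal axis) for DBA1 (left) and 129/svj (right), over the tested member rows and the brightest tested row of each other pathway gene analysed. Sqle is far to the right in both panels and Cyp7b1 in that of DBA1, where the points take the BALB/c signal as it stands although 1 and 0 of 3 mice had these rows above background, and Osbp lies on opposite sides.

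Cyp51 also varied from mouse to mouse within strains, most of all in 129/svj. After each value had been set against the mean of its strain, Cyp51 row scl013121.10_1-S was compared with the pathway rows over the 9 mice of its table, as a description chosen after the data had been seen. Tm7sf2, a sterol reductase, had a Pearson r of 0.89, and 1.41% of all tested rows reached it. Without 129/svj mouse 3 its r was 0.71. Rows of the pathway also ran the other way: Npc2 had an r of -0.93, Hsd17b7 of -0.84, and Sqle of -0.29. Without that mouse the r of Npc2 was -0.90, that of Hsd17b7 was -0.35, and that of Sqle was -0.59. In the 6 B6 and NZW mice, set against the mean deviation of both Cyp51 probes, Scd2 had an r of 0.88 and Acat2 of 0.87, and 2.12% and 2.38% of all tested probes were as high. Of the genes named for the other table, Tm7sf2 had an r of 0.32 and -0.70 by its probes in B6 and NZW. There Npc2 had an r of 0.43 and Hsd17b7 of -0.61 and -0.19, so the values of Tm7sf2 and Npc2 did not recur. Of the other members, Hmgcs1 had an r of 0.68, Sqle of 0.39 and 0.37, Fdps of 0.18, and Lss of -0.44. Mbtps1 probe ILMN_1254957 had an r of -0.97 there, while the brighter probes of that gene were at 0.68 and 0.32. These values share the arrays they come from.

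Markers of other cells and of injury also moved between strains, and their part in the results above was not tested. Several of these calls rest on single mice, as the ranges without each mouse show. Of 5 tubular injury genes tested in B6 and NZW, 2 were higher and 2 lower in NZW. Havcr1, a marker of injured proximal tubule, was at 7.92, 7.54, and 5.40 in B6 and at 10.27, 9.05, and 9.85 in NZW (difference 2.77, SE 0.60, adjusted p = 0.013 in limma, and 0.054 to 0.057 without NZW mouse 1 or 3). B6 mouse 3 was the lowest, and without it the difference was 2.00 (adjusted p = 0.0072 in limma). Krt18 was 0.71 higher, while Lcn2 fell by 1.80 and Spp1, the most abundant of the list, fell by 0.69. The adjusted p of Lcn2 reached 0.094 without B6 mouse 1, and that of Spp1 reached 0.12 without B6 mouse 2. The summed linear signal of the injury list was 17367, 18184, and 9182 in B6 and 9772, 7693, and 8478 in NZW. Of 10 proximal tubule genes, 3 were higher in NZW (Slc5a12 by 1.35, Cubn by 0.60, and Miox by 0.40, whose adjusted p reached 0.15 without B6 mouse 2). Their summed signal, with Miox the most abundant, was 78366, 77125, and 88960 in B6 and 95609, 99255, and 104502 in NZW. The strains did not overlap in this sum. By dimmer probes Lrp2 was 1.16 and Aqp1 0.53 higher in NZW, while Slc13a3 fell by 0.62 (adjusted p = 0.00044, 0.044, and 0.0080 in limma). The brighter probes of Lrp2, Aqp1, and Slc13a3 did not pass, at 0.16, 0.26, and 0.01 (adjusted p = 0.43, 0.15, and 0.97 in limma). Cubn stayed past the threshold in 14 of 15 alternatives.

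Adipocyte genes were uneven among samples. Of 3 tested in B6 and NZW, Cfd, the brightest, was at least 7.94-fold higher in B6 than in NZW on signals without background correction, and 1 of 3 NZW mice had it above background. The Cfd probe was tested because of its B6 level. Its fitted log2 difference was -3.99 (adjusted p = 0.035 in limma), and without B6 mouse 2, the highest, it was -2.98. Its adjusted p was 0.065 to 0.12 without NZW mouse 2 or 3 or B6 mouse 1 or 2, and without NZW mouse 1 the difference was -5.15. Lep, Plin, and Retn were not detected. The summed signal of the list was 936, 5872, and 611 in B6 and 533, 111, and 97.8 in NZW. In the other table Adipoq was high in BALB/c mouse 3 (9.06) and 129/svj mouse 3 (8.65) and 5.06 to 6.90 in the others. For macrophages, 1 of 6 genes, C1qb, was lower in NZW, by 1.02 on the log2 scale. Lyzs had the highest signal of the list over both strains, and C1qb in B6. None of the 3 macrophage genes tested in BALB/c, DBA1, and 129/svj passed. The summed macrophage signal was 3276, 5526, and 2899 in B6 and 2421, 1978, and 2568 in NZW. Of 8 adrenal cortex genes with a probe, Cyp11a1, Cyp21a1, Nr5a1, Mc2r, and Cyp11b2 were not detected in B6 and NZW, and none of the 3 tested passed. Of these, Akr1b7 averaged 7.79 in B6 and 7.37 in NZW (adjusted p = 0.055 in limma), and Star was detected in all 6 mice. In the other table Hsd3b1 was detected in all 9 mice and passed in no comparison, while Cyp11a1 and Star were not detected. No lymphocyte or neutrophil gene passed in any comparison. None of the 3 podocyte genes tested in B6 and NZW passed. Among distal nephron genes, Slc12a3 fell by 1.46 in NZW by its brightest probe, as 1 of 8 tested. Its 4 probes disagreed: another passed too, at -0.77, while the remaining ones were at -0.13 and 0.14 (adjusted p = 0.55 and 0.52 in limma). Calb1 fell by 1.25 in DBA1 against BALB/c, as 1 of 5 (adjusted p = 0.045 in limma, and 0.17 without BALB/c mouse 2). In 129/svj, Slc5a2 fell by 1.53 and Slc22a6 was 1.39 higher than in BALB/c, out of 7 proximal tubule genes, and the adjusted p of Slc22a6 reached 0.14 without BALB/c mouse 1. Slc5a2 was also 1.23 higher in DBA1 than in 129/svj (adjusted p = 0.014 in limma, and 0.064 without 129/svj mouse 2). No erythrocyte gene passed by its brightest probe. Of the 10 tested Hbb-b1 probes, 3 were lower in NZW and were chosen for mention after their values were seen. The differences of the 10 probes ran from -3.84 to 0.02, so probes of this gene disagreed.

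Between the tables, the contrast of sensitive with resistant strains could be compared for 17 matched probes of the other pathway genes and for none of the members that were detected. Of these, 3 differed, against 10.3% of all matched probes, and their values are given with the closing observations.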

How the data were processed

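Total RNA of the kidney cortex was hybridised to Illumina mouse WG-6 v1 BeadChips and analysed in BeadStudio, per the series' design text. The authors deposited 1 signal intensity per probe and array without normalization, with a detection p-value against negative controls, in 2 tables. No sequence of a probe is given, and the array normalization of the study is not given in the sources used here. Every signal and detection column was used, and the bead numbers and errors were not.

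Each table was processed by itself. Background was removed by the normexp convolution of limma, whose negative-control moments were inferred from the deposited detection p-values. An offset of 16 was added, the arrays were brought to the same quantiles, and log2 was taken. The 11 probe identifiers listed more than once were averaged, as were repeat arrays of a mouse. A probe was tested where its detection p was at most 0.05 for 3 mice or more, and the test used was lmFit and eBayes (limma 3.58.1, R 4.3.3), with 1 coefficient per strain, Benjamini-Hochberg adjustment over all tested probes, and an adjusted p below 0.05. The procedure was tested on simulated data. Differences between the tables were fitted over 19886 probe pairs with a search key unique in both. The number of mice limits the precision. Each limma p-value sets a difference against the spread between mice within strains, which is shared over all strains in the fit.

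Members, gene lists, and tests were chosen with earlier results of these data known, and some genes of the lists are not reported here and are left out of their counts. All member probes are named, and of other lists up to 3 rises and 3 falls among called genes, by the tested probe with the highest mean. Other genes and probes named in the text were chosen after their values were seen. A planned search for genes that vary like the members over all 15 mice could not be made, since no member probe matched between the tables was detected. Alternatives covered background correction, scaling, filter, variance model, repeat arrays, joint normalization, the replicate number as a block, the methods' t-test, and each mouse left out.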

Additional observations from a re-analysis of the deposited data

Results flagged for a closer look

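The contrast of sensitive with resistant strains was compared between the tables (NZW minus B6 against the mean of DBA1 and 129/svj minus BALB/c) for the 17 probes of pathway genes that could be matched, and 3 of them differed between the tables. Over all 6896 matched probes tested, 10.3% differed in this way. Lip1, the lysosomal acid lipase, was 0.86 higher in NZW than in B6 and had a mean difference of -0.56 from BALB/c, a gap of 1.42 on the log2 scale (SE 0.29, adjusted p = 0.0040 in limma). Hsd17b7 probe ILMN_1232970 had a gap of 1.18 (SE 0.28, adjusted p = 0.011 in limma), with a difference of 1.26 in NZW, but it was above background in 1 of 3 B6 mice, in no BALB/c or DBA1 mouse, and in 2 of 3 129/svj mice, so the contrast in the other table was not measured. Its brighter probe, detected in every mouse, was 0.52 higher in NZW and 0.82 higher in the other sensitive strains, and the gap there had an adjusted p of 0.45. Cyp7b1 had a difference of -0.31 in NZW and a gap of -2.06 (SE 0.57, adjusted p = 0.032 in limma, and 0.056 to 0.087 without any B6, NZW, or BALB/c mouse), but no BALB/c mouse had it above background, so the size of this gap was not measured either. Of the member probes, 1 of Sqle and 1 of Idi1 had a row to be matched with, and neither was detected, while the other member probes could not be matched 1 to 1.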

How the results depend on the processing

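When a single mouse was left out, the number of member probes past the threshold was 2 to 3 between NZW and B6, 1 in DBA1 and 1 in 129/svj against BALB/c, and 0 between DBA1 and 129/svj. Both Cyp51 probes in NZW and the Sqle row in DBA1 and 129/svj stayed past the threshold each time. The counts over all probes ranged from 903 to 1242 higher and 834 to 1400 lower in NZW, from 218 to 630 and 232 to 537 in DBA1 against BALB/c, from 211 to 466 and 205 to 485 in 129/svj against BALB/c, and from 194 to 382 and 211 to 388 in DBA1 against 129/svj. For the difference between the tables they ranged from 466 to 834. Differences near 0 changed sign in this way: Fdps ILMN_1225730 ranged from -0.037 to 0.015, Sqle ILMN_2737163 from -0.076 to 0.12, and Hmgcs1 ILMN_2654952 from -0.20 to 0.034. In 129/svj against BALB/c, Cyp51 row scl013121.10_1-S ranged from -0.46 to 0.28 and row scl0013121.2_8-S from -0.30 to 0.34. Slc22a6 ranged from -0.38 to 0.26 in DBA1 against 129/svj. With 75th percentile scaling Fdps was 0.16 and Hmgcs1 0.13 higher in NZW, and the median of all probes moved from 0.04 to 0.13, with 62.7% of the called probes higher against 51% as reported. With both tables normalized together, 275 matched probes were higher and 403 lower in NZW (40.6% higher), and 236 were higher in 129/svj than in BALB/c; fewer probes enter that fit, and none of them is a tested member. Where only rows detected in every mouse were tested, the Sqle row of the BALB/c table was not tested, so the member count was 0 in DBA1 and in 129/svj against BALB/c. The counts over all rows were then 294 higher and 293 lower in DBA1, 235 and 231 in 129/svj, and 172 and 196 in DBA1 against 129/svj. The methods' t-test without adjustment called 2685 probes higher in NZW, 1393 higher and 1335 lower in DBA1 against BALB/c, 1039 and 1196 in 129/svj against BALB/c, and 901 and 884 in DBA1 against 129/svj, with 2 member rows in DBA1 against BALB/c. After Benjamini-Hochberg adjustment the same test called 872 higher and 979 lower in NZW, 197 and 202, 142 and 176, and 100 and 118, with 1 member probe in NZW: Cyp51 ILMN_2428754 then had an adjusted p of 0.053 and Lss 0.12. Without background correction 9 of 76 named differences were smaller by over 1.5-fold and lay on the same side of the threshold as before, those of Sqle, Osbp, Cyp7b1, Cfd, a Hsd17b7 probe, and a Hbb-b1 probe. The cause was not tested for these changes other than where stated.

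The replicate numbers name different mice of different strains. Deviations of same-numbered mice had correlations of -0.07 to 0.01 in B6 and NZW and -0.26 to 0.39 in the other table. For differently numbered mice these were -0.02 to 0.08 and -0.42 to 0.40. The same-numbered pairs of DBA1 and 129/svj were all positive (0.19, 0.10, and 0.39), while their differently numbered pairs ran from -0.42 to 0.34. With the replicate number as a block, 2 member probes passed in NZW, since Lss had an adjusted p of 0.054, and 1259 probes were higher and 1362 lower. Between DBA1 and 129/svj no member row passed with the block, and 326 rows were higher and 352 lower in DBA1. Against BALB/c, 1 member row passed with it in DBA1 and 1 in 129/svj. The detection limit of the array bounds the Sqle level in BALB/c and leaves Insig1 and Idi1 without a level.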
